A study of Homo sapiens with 22 samples.

Results

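DBP, TEF, HLF and NFIL3 are 4 basic leucine zipper (bZIP) transcription factor genes that carry clock timing to other genes. Peaks of BMAL1 and CLOCK were taken at these genes by position alone, in the monocytic leukaemia line THP-1, which carries the MLL-AF9 fusion. The genes themselves were chosen with earlier results of these data known. Comparisons of the genes with the whole lists may therefore not be independent of that choice. A peak was assigned to a gene when its midpoint lay in the hg19 gene body or within 10 kb of it. The rule found 4 of 9584 BMAL1 peaks, 2 of 269 CLOCK peaks and 2 of the 140 regions in the authors' deposited table of sites common to both factors. Both libraries came from cells grown without treatment, fixed with 2 mM EGS, a protein crosslinker, for 30 minutes and with 1% formaldehyde for 30 minutes. Each factor had 1 library, so there is no replicate error and no test between factors or genes was possible. The series describes 22 libraries, 15 of NOMO-1 and 7 of THP-1 cells, and the other 20, IgG and input among them, were not analysed here. THP-1 is an established line, so what is listed for it need not hold for normal monocytes, and no expression was measured with which to check the cells.

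BMAL1 and CLOCK form a heterodimer that binds E-box sequences and drives the positive arm of the circadian loop. DBP, TEF and HLF are the proline- and acidic-amino-acid-rich (PAR) bZIP activators, which bind D-box sequences in the promoters of other clock and metabolic genes. NFIL3, also called E4BP4, is a bZIP repressor that binds the same D-box sequences, so the 4 proteins act on shared sites in opposite directions. DBP is a classic direct target of BMAL1 and CLOCK in liver. HLF is also known as a gene of blood stem cells, and NFIL3 is needed for the formation of natural killer cells.

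The promoters of DBP and TEF are shown first, because these genes held a peak of both factors. The sequences are those of RefSeq for build GRCh38.p14, in which all 4 genes matched by symbol. They run 5′ to 3′ along the gene for the 250 bases before a start site. Capitals mark each CANNTG, the general form of the E-box. DBP had 1 start site in the table, on the minus strand, with its upstream bases at chr19:48637380-48637629. TEF had 2, both on the plus strand and 14487 bp apart, with upstream bases at chr22:41367205-41367454 and chr22:41381692-41381941.
DBP: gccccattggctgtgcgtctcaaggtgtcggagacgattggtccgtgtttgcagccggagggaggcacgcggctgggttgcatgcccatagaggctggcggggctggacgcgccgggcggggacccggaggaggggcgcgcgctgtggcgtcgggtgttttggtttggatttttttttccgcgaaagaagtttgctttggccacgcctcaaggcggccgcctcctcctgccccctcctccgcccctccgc
TEF, upstream start: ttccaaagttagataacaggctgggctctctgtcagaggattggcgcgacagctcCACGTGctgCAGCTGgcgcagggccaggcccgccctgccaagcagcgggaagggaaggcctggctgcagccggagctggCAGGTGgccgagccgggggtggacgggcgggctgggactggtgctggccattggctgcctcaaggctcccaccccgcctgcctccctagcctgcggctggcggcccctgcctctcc
TEF, downstream start: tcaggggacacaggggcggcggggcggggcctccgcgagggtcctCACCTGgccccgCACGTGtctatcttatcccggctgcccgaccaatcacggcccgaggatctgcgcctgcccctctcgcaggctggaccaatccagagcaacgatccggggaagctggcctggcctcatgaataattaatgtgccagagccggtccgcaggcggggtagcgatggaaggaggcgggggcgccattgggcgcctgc

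The peaks are in hg19 and these windows in GRCh38.p14, and the builds were not aligned, so the printed bases are the genes' promoters and not the sequence under a peak.

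DBP held the strongest sites of the group. DBP encodes the D-box activator known for strongly rhythmic levels in many tissues. The CLOCK peak at chr19:49140797-49141329 had a score of 118.5, and the BMAL1 peak at chr19:49140850-49141246 had a score of 48. Scores are those of the authors' peak lists, deposited without a stated unit or a shared scale, and are read here only within a list. The CLOCK peak ranked 4 of 269, with 1.49% of CLOCK peaks scoring as high or higher, and was the highest of the 28 CLOCK peaks on chromosome 19. The BMAL1 peak ranked 231 of 9584, tied with 3 others, with 2.44% of BMAL1 peaks scoring as high or higher. On chromosome 19 that peak ranked 16 of 434.

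Both DBP peaks lay at the upstream end of the gene. DBP is read on the minus strand, so its 5′ end in hg19 is base 49140807. The BMAL1 midpoint was 241 bp and the CLOCK midpoint 256 bp upstream of that base. The BMAL1 peak covered bases 43 to 439 upstream, while the wider CLOCK peak began 10 bp inside the gene and ended 522 bp upstream. The 2 midpoints were 15 bp apart, and all 397 bp of the BMAL1 peak fell inside the CLOCK peak. In gene order CA11 is the next protein-coding gene on this side of DBP (GRCh38.p14), and on the other side SPHK2 overlaps DBP. Position alone does not say which gene a site serves.

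A second BMAL1 peak was listed inside DBP, without a CLOCK partner. It lay at chr19:49137757-49138153, with a midpoint 2852 bp downstream of the 5′ end, and had a score of 21. Of all BMAL1 peaks 23.3% scored as high or higher. Its midpoint was 3093 bp from that of the upstream BMAL1 peak. Over the whole list, 680 of 9584 BMAL1 peaks (7.10%) had another BMAL1 midpoint at most this far away. DBP was the only one of the 4 genes with more than 1 BMAL1 peak in its window. Whether the second peak lies in an exon or an intron was not analysed here.

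TEF, a second PAR bZIP activator, also held a peak of both factors, but far from the 5′ end of its hg19 gene body. The BMAL1 peak at chr22:41777422-41777818 scored 18.5 and the CLOCK peak at chr22:41777501-41778033 scored 47. The CLOCK peak ranked 30 of 269, with 11.2% of CLOCK peaks as high or higher, and 3 of 12 on chromosome 22. The BMAL1 peak ranked 2814 of 9584 in a tie of 167, with 31.1% of BMAL1 peaks as high or higher. In both lists the TEF site thus stood lower than the upstream DBP site.

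The TEF midpoints lay 14283 bp (BMAL1) and 14430 bp (CLOCK) downstream of the 5′ end of the hg19 gene body, which spans 31996 bp. They were 147 bp apart and the peaks shared 318 bp. The BMAL1 peak covered 14085 to 14481 bp downstream of that end, and the CLOCK peak 14164 to 14696 bp. For comparison, the downstream TEF start site in RefSeq is 14487 bp past the upstream one in GRCh38.p14. That spacing falls inside the CLOCK span and just past the BMAL1 span. The distances come from different builds and the hg19 5′ end need not be the RefSeq start, so a match of the peak to the downstream start was not tested. LOC100996598, a protein-coding entry in the same build, overlaps TEF. No peak of either factor was listed within 10 kb of the upstream end of the TEF body.

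**Figure D1:**
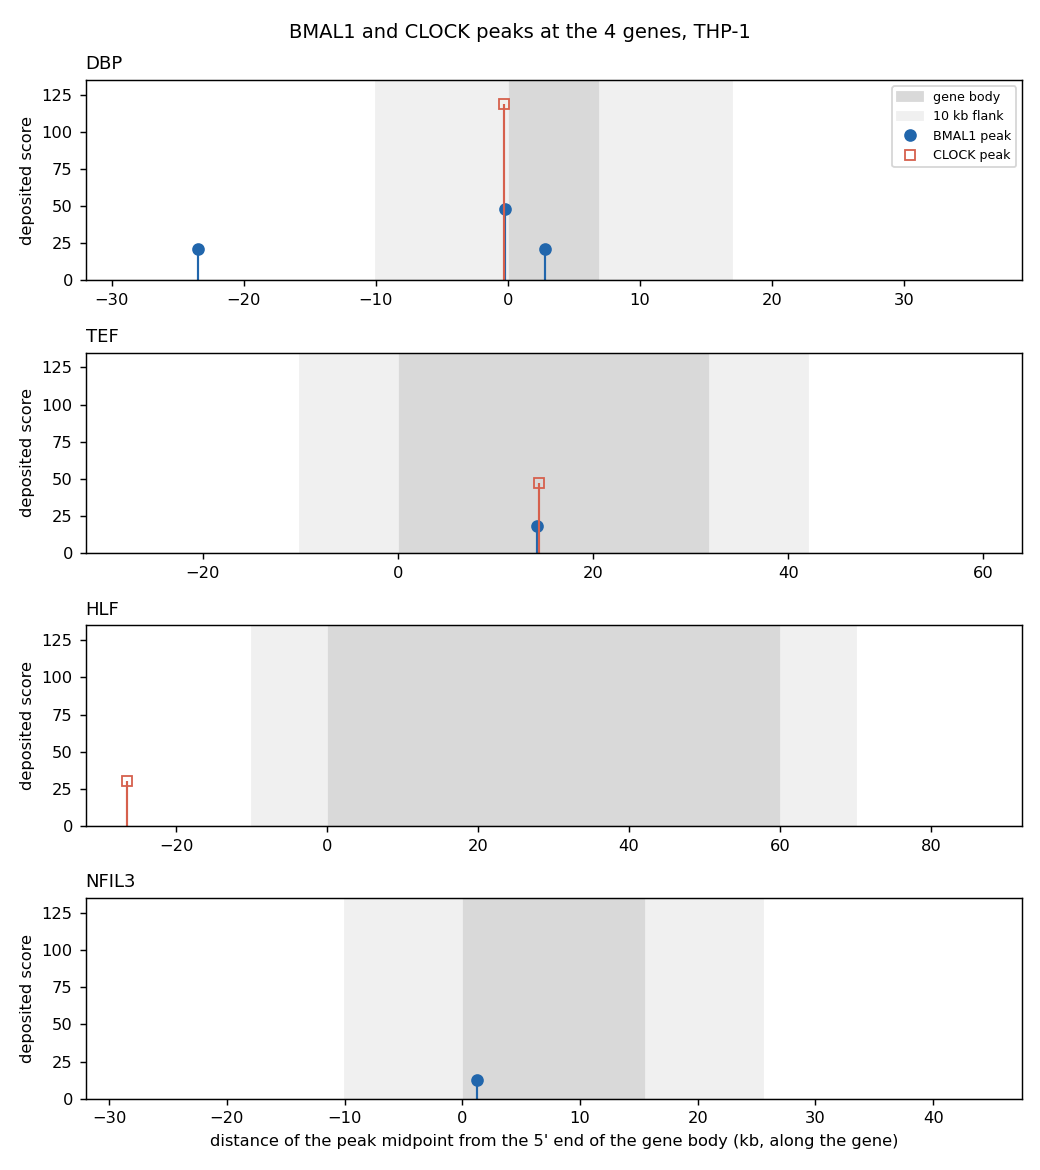
Peaks of BMAL1 (filled circles) and CLOCK (open squares) by distance of their midpoint from the 5′ end of each gene body in kb (x axis) and deposited score (y axis, not a shared scale between factors). Dark grey is the gene body and light grey the 10 kb flank. The tallest mark is the CLOCK peak of DBP at 118.5, and the HLF window is empty.

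NFIL3, the D-box repressor, had a BMAL1 peak and no listed CLOCK peak. The BMAL1 peak at chr9:94185419-94185815 scored 12.5, below the list median of 14.5, and 68.4% of BMAL1 peaks scored as high or higher. It ranked 259 of 389 on chromosome 9. The lowest scores listed were 10 for BMAL1 and 18 for CLOCK. A BMAL1 peak without a CLOCK partner is the common case, as 1.46% of all 9584 overlapped a CLOCK peak. NFIL3 is also read on the minus strand, and the midpoint lay 1291 bp downstream of its 5′ end, base 94186908. It was the only BMAL1 peak within 100 kb of NFIL3. The nearest listed CLOCK midpoint was 901042 bp upstream of the gene, in a peak scoring 32.5 that overlapped no BMAL1 peak.

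HLF, the third PAR bZIP activator and the longest of the 4 genes with a body of 60106 bp, had no listed peak of either factor in its window. The nearest CLOCK peak, chr17:53315511-53316043, scored 30.5 and ranked 82 of 269 in a tie of 5. Its midpoint was 26544 bp upstream of HLF, on the side where STXBP4 is the next protein-coding gene in GRCh38.p14 order, and it overlapped no BMAL1 peak. The nearest BMAL1 peak was 252268 bp beyond the 3′ end and scored 11.5. HLF thus had no BMAL1 peak within 100 kb, where DBP had 7, TEF 3 and NFIL3 1. The chromosomes differ in density as well, with 0.482 BMAL1 peaks per 100 kb on chromosome 17 (HLF), 0.738 on 19 (DBP), 0.502 on 22 (TEF) and 0.276 on 9 (NFIL3), so the counts alone do not show a difference between the genes.

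An empty window does not show an unbound gene. Peak numbers, which follow score within a chromosome, had gaps on chromosome 17, where HLF lies, of 86 among 474 BMAL1 numbers and 29 among 48 CLOCK numbers. On chromosome 9, which holds NFIL3, 162 of 551 BMAL1 and 113 of 126 CLOCK numbers were absent. Gaps were also present where peaks of both factors were listed. On chromosome 19 (DBP) 19.0% of BMAL1 and 57.6% of CLOCK numbers were absent, and on chromosome 22 (TEF) 17.6% and 50%. The shares were similar on chromosome 17, 18.1% and 60.4%, but higher on chromosome 9, 29.4% and 89.7%. NFIL3, with no listed CLOCK peak, lies on the chromosome with the largest share of absent CLOCK numbers among these. Whether any absent number belongs to its window was not tested. The positions of the absent entries were not analysed here. The depth of the libraries is unknown from these files.

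The count of occupied genes was read beside the lists' own density. Each chromosome was cut into consecutive stretches as long as the gene's window, from its first to its last listed peak. For DBP, 16.4% of such stretches of 26991 bp on chromosome 19 held a BMAL1 peak and 1.24% a CLOCK peak. For TEF, 19.6% of stretches of 51996 bp on chromosome 22 held a BMAL1 peak and 1.71% a CLOCK peak. For NFIL3, the shares on chromosome 9 were 8.02% and 0.328% for stretches of 35582 bp. For HLF, whose window of 80106 bp is the longest, they were 26.0% and 1.79% on chromosome 17. An empty HLF window is therefore what most stretches of its length showed, for both factors. A window without a CLOCK peak was likewise what most stretches of the NFIL3 length showed. The stretches include gene-poor sequence, in which few peaks may lie, so these shares are no measure for genes alone.

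Over the 4 windows together, 194675 bp in all, there were 2.05 BMAL1 peaks and 1.03 CLOCK peaks per 100 kb. The 4 chromosomes that hold the genes had 0.439 BMAL1 and 0.0229 CLOCK peaks per 100 kb between their outermost peaks. Those spans also include gene-poor sequence, so their densities are no measure for genes alone. The CLOCK value at the genes rests on 2 peaks. With a flank of 50 kb the densities at the genes were 1.36 for BMAL1 and 0.583 for CLOCK.

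**Figure D2:**
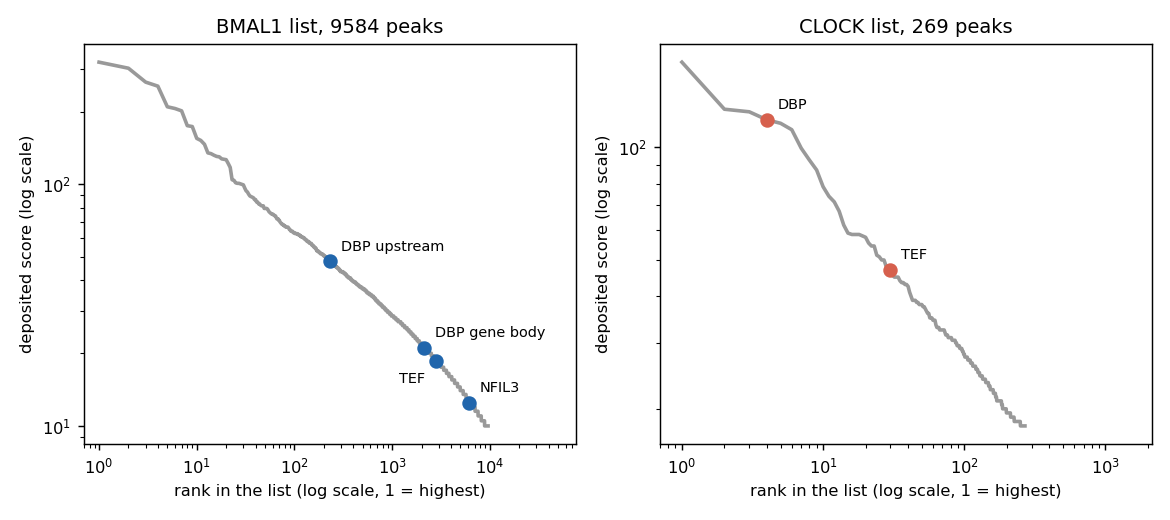
Deposited score (y axis, log scale) against rank (x axis, log scale) for all BMAL1 peaks (left) and all CLOCK peaks (right), as grey lines, with the peaks at the 4 genes as coloured points. The upstream DBP peak sits at rank 231 of the BMAL1 list and rank 4 of the CLOCK list, and the NFIL3 peak lies in the lower part of the BMAL1 list.

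Both CLOCK peaks at these genes shared 1 bp or more with a BMAL1 peak, as did 52.0% of all 269 CLOCK peaks. With 2 peaks this count does not set the genes apart. Of the 30 CLOCK peaks that scored 47 or more, the TEF score, 23 overlapped a BMAL1 peak (76.7%). The DBP and TEF peaks are themselves among these 23. From the other side, 2 of the 4 BMAL1 peaks at these genes overlapped a CLOCK peak, where 1.46% of all 9584 did. The 2 that did are the upstream DBP peak and the TEF peak, and the 2 that did not are the DBP gene body peak and the NFIL3 peak. These are the same 2 pairs as from the CLOCK side. The share over the BMAL1 list is limited by its size, 9584 beside 269, and was not matched for BMAL1 score. The count rests on 2 pairs at genes chosen with earlier results known, so whether it sets the genes apart was not tested. In the authors' deposited table the common regions were chr19:49140850-49141246 at DBP and chr22:41777501-41777818 at TEF, with the CLOCK scores of 118.5 and 47.

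The DBP pair was more closely aligned than the TEF pair. Among the 140 overlapping pairs the midpoints lay at a median of 50.5 bp, with quartiles of 12 and 122.5 bp. The DBP distance of 15 bp fell between the lower quartile and the median, and the TEF distance of 147 bp above the upper quartile, with 78.6% of pairs as close or closer. By CLOCK score the DBP pair ranked 4 and the TEF pair 23 of 140. By BMAL1 score they ranked 16 and 68, against a median BMAL1 score of 18 over all pairs. The TEF pair was thus high in the CLOCK order and near the middle in the BMAL1 order.

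**Figure D3:**
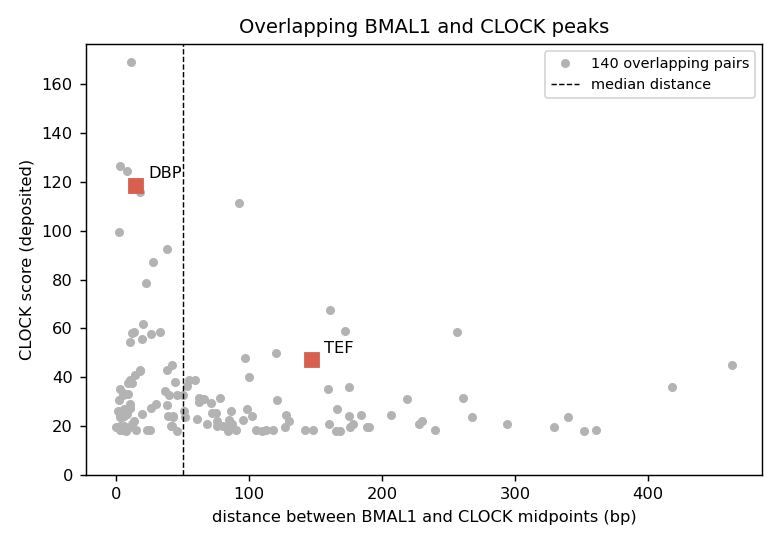
CLOCK score (y axis) against the distance between BMAL1 and CLOCK midpoints in bp (x axis) for the 140 overlapping pairs, grey, with the DBP and TEF pairs as squares and the median distance as a dashed line. DBP lies left of the median of 50.5 bp and TEF right of it at 147 bp.

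The listed peaks next in score to those of the group came from several chromosomes. In the CLOCK list the DBP peak stood between chr4:2414618-2415150 with 124.5 and chr1:229203821-229204353 with 116, both of which overlapped a BMAL1 peak. The TEF peak stood between chr11:48882633-48883165 with 47.5 and chr22:20657518-20658050 with 45.5, neither of which did. The upstream DBP peak of BMAL1 shared its score of 48 with both neighbours in the list, chr18:21854778-21855174 and chr2:136743131-136743527. Neither overlapped a CLOCK peak. The DBP gene body peak of BMAL1, in a tie of 127, also shared its score, 21, with both neighbours, chr19:43979191-43979587 and chr19:49164117-49164513. The second of these lies upstream of DBP itself, 23508 bp from the gene, and is the first peak outside the window there. Ties were ordered by chromosome and start, so its place beside the DBP peak in the list follows from position and not from score.

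TEF was the only one of the 4 genes with the E-box CACGTG in a promoter window, and it had 1 at each of its 2 start sites. Windows ran from 250 bases before to 50 after a start site, and both strands were searched. At the upstream TEF start CACGTG began 195 bases before the start, and at the downstream start 193 bases before it. Of 35116 windows listed there, 7.26% held CACGTG. Of the 3606 genes with exactly 2 windows, 1.89% had it in both. These shares were not matched for GC content, which was 69.0% in the upstream and 69.7% in the downstream TEF window. The upstream TEF window also held CAGCTG at 186 bases and CAGGTG at 116 bases before the start, and a CAGCTG that spans the start. The downstream window also held CACCTG at 205 bases before the start and CAGCTG after it.

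The DBP window held no CANNTG and none of CACGTT, the E-box form with 1 base changed, although CANNTG was in 68.7% of windows. This says only that these letters were absent from the 300 bases around the RefSeq start, since the DBP peaks reach beyond 250 bp from the 5′ end of the hg19 body and the builds were not aligned. None of the 7 windows of the 4 genes held CACGTT, which 5.34% of all windows held.

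HLF and NFIL3 each had 2 start sites in the table, 1262 bp and 794 bp apart. Their windows held no CACGTG. HLF had a CANNTG before its upstream start, shown here because it is the only one before a start of either gene, at chr17:55264788-55264815 (GRCh38.p14, plus strand) with the word in capitals, and another, CACATG, after that start. NFIL3 had none, but its upstream window held a D-box word, shown at chr9:91424643-91424672 (minus strand), which begins 35 bases before the start.
HLF: agggaatctggCACCTGctcccctgcaa
NFIL3: tcccagtcgtgTTACGCAAcaactttgcag

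The D-box words searched were TTATGTAA, TTACGTAA, TTATGCAA and TTACGCAA on both strands, chosen after the sequences were seen. One of them was in 1.99% of all windows, and NFIL3 was the only one of the 4 genes with one. A match of letters is a description of the sequence and not of binding.

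For the other clock genes only promoters could be read, as no hg19 annotation was used here. Promoters of 15 such genes were read, that of ARNTL under its present symbol BMAL1. CACGTG was found in 5 of the 15, namely PER1, a repressor of the loop, NR1D2, which encodes REV-ERB beta, BHLHE40 and BHLHE41, which encode E-box-binding repressors, and CIART, a further repressor. Over all 27305 tabulated genes, 8.77% had it. CACGTT was in another 5, CLOCK, CRY1, CRY2, NR1D1 and PER2, and in 6.44% of all genes. The D-box words, chosen after the sequences were seen, were in windows of 4, PER1, PER2, PER3 and NR1D2, and in 2.49% of all genes. None of these shares of all genes was matched for the GC content of the windows.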

How the data were processed

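Peaks of BMAL1 and CLOCK in 1 THP-1 library each were read from the deposited lists, whose score column has no stated unit, normalization, control or threshold. The deposited files have no header, and their source column names HOMER. Per the submitters' processing notes, Bowtie 0.12.7, SAMtools 1.2, Picard, HOMER 4.7.2 and build hg19 were used, with no role or order given. Peaks were called per library. Depth per library is unknown, so no precision can be given for a score.

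Midpoints were placed against the 4 hg19 gene bodies with a flank of 10 kb, strand coming from RefSeq. Peaks overlapping by at least 1 bp were counted as shared. All peaks of the 4 genes are named, with the neighbours by score (ties by chromosome and start) of those in the top 25% of their list. Words were counted in RefSeq promoter windows of GRCh38.p14. No test was run. Alternatives changed the flank, the overlap rule, the score limit, the word and the list in which a peak was ranked (its own chromosome). Counting was checked on simulated data. The members and lists were chosen with earlier results of these data known. Python 3.11.15, numpy 2.4.6, pandas 2.3.3 and matplotlib 3.10.9 were used.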

Additional observations from a re-analysis of the deposited data

How the results depend on the processing

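Of 31 alternatives to 12 results, 22 stayed within 1.5 times the count or density, or within the 95% exact interval of the percentage, and 9 did not. That interval is for the share of the whole list, so it is narrow for 9584 BMAL1 peaks and wide for 269 CLOCK peaks. It takes no account of the fewer peaks on a chromosome, so the tally does not measure the size of a change. A flank of 50 kb raised the BMAL1 peaks from 4 to 7 and lowered the densities per 100 kb to 1.36 for BMAL1 and 0.583 for CLOCK, as wider windows take in more sequence. The gene bodies alone held 1 CLOCK peak, that of TEF, since the DBP midpoint lies upstream. Requiring midpoints within 100 bp left 1 gene with both factors, DBP, since the TEF midpoints are farther apart. Within their own chromosome 3.69% of BMAL1 peaks scored as high as the upstream DBP peak or higher, 69.7% as high as the NFIL3 peak, and 25% of CLOCK peaks as high as the TEF peak. The NFIL3 share counted as changed, though it was 68.4% in the whole list. For the DBP CLOCK peak the share went from 1.49% to 3.57% and counted as unchanged. CANNTG was found in 2 of the 4 genes.

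No paired analysis was possible because each factor had 1 library with a peak list, so the groups share only 1 replicate number. With 1 library per factor, none was left out in turn. The scores have no stated scale, and the depth is unknown, which limits what a gene without a listed peak shows.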
